A study of Oryza sativa with 8 samples.

Results

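Diterpenoid phytoalexins are antimicrobial compounds that rice makes in leaves and roots, chiefly the momilactones, phytocassanes and oryzalexins. Their synthesis starts from geranylgeranyl diphosphate. A copalyl diphosphate synthase (CPS) closes the first rings, a kaurene synthase-like enzyme (KSL) makes the hydrocarbon skeleton, and cytochromes P450 (CYP) oxidise it. Gibberellin synthesis uses the same precursor through its own CPS and KS enzymes. Several phytoalexin genes lie side by side in the rice genome, in a momilactone cluster and a phytocassane cluster.

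The 8 genes CPS2, CPS4, KSL4, KSL7, KSL10, CYP99A2, CYP99A3 and CYP701A8 were chosen by name, through the symbols and synonyms of the platform annotation and of RefSeq. Each name matched 1 gene, and together they had 9 probe sets, of 57194 probe sets that are not controls, since KSL7 had 2. The names, and those of the lists used below, were chosen with earlier results of these data known. Their counts beside those of all probe sets or genes are therefore not an independent contrast. All samples were roots of the rice cultivar IR64 from pots in a greenhouse. Transgenic plants (T) carried OsPSTOL1, a protein kinase gene tied to tolerance of phosphorus (P) deficiency, under the constitutive 35S promoter, and non-transgenic null segregants (NT) did not. T and NT plants grew in P-deficient soil and were sampled at heading, or grew in P-fertilised soil and were sampled at mid-tillering. Soil and stage therefore changed together and cannot be told apart. Each of the 4 groups has 2 arrays that the labels call biological replicates. The labels do not say how many plants or transgenic lines they hold, so p-values measure the spread between these arrays.

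Values are scaled intensities, 1 per probe set and array. Array totals lay between 8060018 and 8802152. Differences are given on the log2(value + 32) scale, which understates changes of low signals, with their standard error (SE). A change was called at a limma adjusted p under 0.05 over 34316 probe sets kept after a filter on low values. The filter used the mean of the 8 arrays, and all 9 probe sets of the 8 genes passed it. In P-fertilised soil KSL4 (1.1 to 13.9), KSL10 (0.6 to 10.5) and the dimmer KSL7 probe set (3 to 7.7) read low. These passed only through their readings in P-deficient soil. Probe sets differ in how strongly they bind, so levels of different genes are not compared.

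Some features of the arrays moved with the groups. RNA integrity was read from GAPDH and from actin, dividing the signal of the 3-prime control probe set by that of the 5-prime one. For GAPDH, T arrays of P-deficient soil gave 198 (replicate 1) and 3.05 (replicate 2). NT arrays there gave 1.15 and 1.21, and P-fertilised arrays 1.55 to 2.16. For actin, the same T arrays gave 272 and 20.3. The NT arrays gave 4.85 and 8.61, and P-fertilised arrays 5.15 to 6.09. By either control, both T arrays of P-deficient soil exceeded every other array. Among root markers, the silicon channel gene Lsi1 read 3248.4 to 3870.3 with P fertiliser and 2015.2 to 2772 without. The silicon efflux gene Lsi2 read 26.6 to 106.8 against 2236.9 to 2732.7. The best-read probe set of the Casparian strip gene CASP1 read 10.7 to 18.4 against 429.1 to 612.2. Over the root marker list, 0 of 7 genes were higher and 3 lower in P-deficient soil in NT, and 0 higher and 5 lower in T. Of all 16166 genes kept, 3060 were higher and 3718 lower in NT, and 3448 higher and 3907 lower in T. The markers SHR1 (-0.07), SCR1 (-0.06), WOX11 (-0.05) and CSLD1 (-0.42) did not pass in NT. In T SHR1 (-0.41) and SCR1 (0.205) did not. The 9 root probe sets summed to 2167.5 to 3047.6 in P-deficient soil and 6793.9 to 7397.6 in P-fertilised soil. Lsi1 and Lsi2 made up most of that sum on every array. The 16 probe sets of green tissue markers summed to 1326.3 and 1532.1 in T and 1902.7 and 1161.1 in NT of P-deficient soil, and to 992.5 and 2068.2 in T and 899.7 and 967 in NT of P-fertilised soil. The GLO1 gene made up most of that sum on every array but T replicate 2 of P-fertilised soil. The 14 probe sets of the other green markers summed to 1449.5 on that array and to 260.5 to 457.3 on the other 7. No marker probe set read 0 on any array. In these bulk samples fewer cells of a type and less RNA per cell cannot be told apart. The part of RNA integrity, cell makeup and green tissue in the results was not tested. A fit with the GAPDH ratio as a covariate is given with the alternatives, but it cannot separate RNA integrity from genotype.

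The soil comparison asked whether the genes differ between roots of P-deficient soil at heading and of P-fertilised soil at mid-tillering. All 8 genes were higher in P-deficient soil, in NT and in T plants alike. In NT the difference ran from 1.72 for KSL4 to 4.42 for CPS2 with a median of 2.87 over the 8 genes, against a median of -0.01 over 16166 genes with 1 probe set each. In T it ran from 0.99 for KSL4 to 3.53 for CYP701A8 with a median of 2.10, against -0.01 over the 16166 genes. All 9 probe sets passed in limma in each genotype, with the filter on low values and without it. KSL4, KSL10 and the dimmer KSL7 probe set were kept by the filter only through their readings in P-deficient soil. The order of the genes depends on the pseudocount. With 1 in place of 32, the NT difference ran from 3.08 for CYP99A3 to 6.43 for KSL10, with 5.25 for CPS2 and 4.12 for KSL4. Of all probe sets, 15.5% were called higher in P-deficient soil in NT and 15.5% in T. Over the 16166 genes, 3060 were called higher and 3718 lower in NT, and 3448 higher and 3907 lower in T. No array of P-deficient soil overlapped one of P-fertilised soil for any of the 9 probe sets, a pattern that 20.8% of all probe sets showed in this direction.

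**Figure D1:**
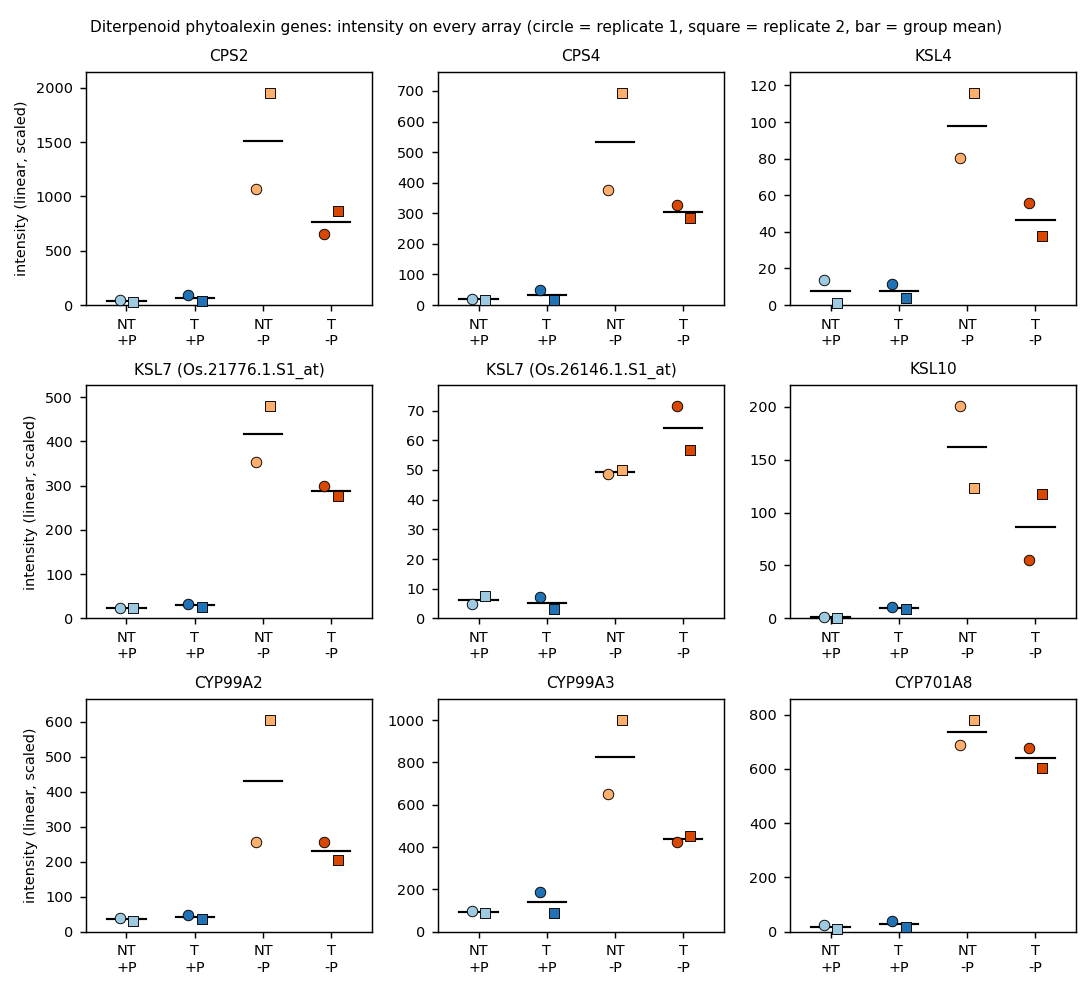
Linear scaled intensity of the 9 probe sets of the 8 genes on each of the 8 arrays, by genotype (NT, T) and soil (+P fertilised at mid-tillering, -P deficient at heading). Circles are replicate 1, squares replicate 2 and bars the mean of 2 arrays, and every -P point lies above every +P point of the same probe set.

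The class II cyclases come first in the pathway. CPS2 (LOC9266189) makes ent-copalyl diphosphate for phytocassanes and oryzalexins. In P-deficient soil it read 1067.2 and 1950.6 in NT and 653.9 and 867.9 in T, and in P-fertilised soil 45.9 and 29.5 in NT and 90.2 and 35.1 in T. Its NT mean was 1509 ± 625 against 37.7 ± 11.6 (SD, n = 2 arrays each), a linear ratio of 40. The log2 difference was 4.42 ± 0.35 in NT (limma adjusted p = 5.44e-05) and 3.12 ± 0.35 in T (adjusted p = 0.000288). All 4 arrays of P-deficient soil were high, NT replicate 2 the most, and T replicate 1 was the highest of P-fertilised soil.

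CPS4 (LOC4335090) makes syn-copalyl diphosphate, the precursor of momilactones. It read 374.9 and 693 in NT and 327.1 and 283.3 in T in P-deficient soil, and 21.1 and 17 in NT and 50.9 and 17.4 in T in P-fertilised soil. The difference between soils was 3.41 ± 0.31 in NT (limma adjusted p = 0.000106) and 2.39 ± 0.31 in T (adjusted p = 0.000603). As for CPS2, NT replicate 2 of P-deficient soil and T replicate 1 of P-fertilised soil were the highest arrays of their soils.

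The KSL enzymes act on these diphosphates. KSL4 (LOC4335094) makes the syn-pimaradiene skeleton of momilactones. Its probe set read 80.2 and 115.8 in NT and 55.5 and 37.9 in T in P-deficient soil, against 13.9 and 1.1 in NT and 11.7 and 3.6 in T in P-fertilised soil. It rose by 1.72 ± 0.22 in NT (limma adjusted p = 0.000612) and by 0.99 ± 0.22 in T (adjusted p = 0.00901). The call in T was lost without T replicate 1 of P-deficient soil (adjusted p = 0.0604) or T replicate 2 of P-fertilised soil (0.0713), with the GAPDH ratio as a covariate (0.098) and with a pseudocount of 1 (0.0542).

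KSL7 (LOC4329724) makes the ent-cassadiene skeleton of phytocassanes. Its probe set with the higher mean read 352.6 and 479.2 in NT and 299.3 and 276.7 in T in P-deficient soil, against 22.9 and 23 in NT and 33.2 and 26.1 in T in P-fertilised soil. It rose by 3.01 ± 0.18 in NT (limma adjusted p = 1.38e-05) and 2.38 ± 0.18 in T (adjusted p = 3.93e-05). The other probe set of KSL7 rose by 1.09 ± 0.14 in NT and 1.37 ± 0.14 in T (adjusted p = 0.000563 and 0.000159). It read 48.8 and 50.1 in NT and 71.4 and 56.7 in T in P-deficient soil, and 3 to 7.7 over the 4 arrays of P-fertilised soil. Both probe sets read the gene as higher in P-deficient soil, and they ordered the genotypes there in opposite ways.

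KSL10 (LOC4352248) makes the ent-sandaracopimaradiene skeleton of oryzalexins. It read 200.4 and 123.3 in NT and 55.6 and 117.8 in T in P-deficient soil, against 1.1 and 0.6 in NT and 10.5 and 8.7 in T in P-fertilised soil. It rose by 2.53 ± 0.27 in NT (limma adjusted p = 0.000237) and by 1.46 ± 0.27 in T (adjusted p = 0.0035). KSL10 was the only one of the 8 genes whose NT replicate 2 did not exceed NT replicate 1 in P-deficient soil.

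Cytochromes P450 come last. CYP99A2 (LOC4335096) and CYP99A3 (LOC4335091) belong to 1 subfamily and oxidise syn-pimaradiene on the way to momilactones. Whether their probe sets read each other's transcript was not examined. CYP99A2 read 254.7 and 605.3 in NT and 257.2 and 204.6 in T in P-deficient soil, against 40.4 and 31.1 in NT and 48.3 and 36.6 in T in P-fertilised soil. It rose by 2.66 ± 0.33 in NT (limma adjusted p = 0.000524) and by 1.82 ± 0.33 in T (adjusted p = 0.00331).

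CYP99A3 read 650 and 1001.3 in NT and 424.7 and 454 in T in P-deficient soil, against 98.9 and 89.9 in NT and 189.1 and 87.9 in T in P-fertilised soil. It rose by 2.73 ± 0.30 in NT (limma adjusted p = 0.000271) and by 1.53 ± 0.30 in T (adjusted p = 0.00461). CYP701A8 (LOC4341343) codes for a relative of the gibberellin enzyme kaurene oxidase that hydroxylates phytoalexin skeletons. It read 688.9 and 780.8 in NT and 675.9 and 601.5 in T in P-deficient soil, against 24.1 and 11.2 in NT and 38.3 and 15.7 in T in P-fertilised soil. CYP701A8 rose by 3.96 ± 0.23 in NT (limma adjusted p = 1.12e-05) and 3.53 ± 0.23 in T (adjusted p = 1.85e-05), and its genotypes lay closest together in P-deficient soil among the 8 genes.

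**Figure D2:**
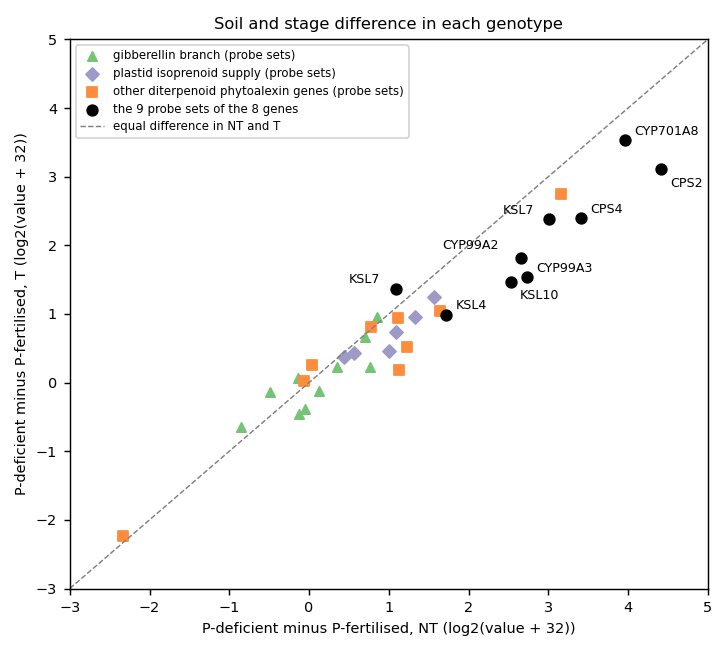
Difference between P-deficient and P-fertilised soil on the log2(value + 32) scale in NT (horizontal) and T (vertical) for each probe set of the 8 genes (black) and of the other diterpenoid, plastid isoprenoid and gibberellin lists. Of the 9 black points, 8 lie below the line of equal difference, and the second KSL7 probe set (1.09 in NT and 1.37 in T) lies above it.

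The genotype comparison asked whether constitutive OsPSTOL1 goes with a change of these genes in each soil. In P-deficient soil all 8 genes had lower values in T, taking the brighter probe set of KSL7, and none passed the test. The difference ran from -0.91 ± 0.35 for CPS2 to -0.19 ± 0.23 for CYP701A8, with a median of -0.71 against 0.06 over all 16166 genes. Between these lay CYP99A3 (-0.83 ± 0.30), KSL10 (-0.73 ± 0.27), KSL4 (-0.72 ± 0.22), CYP99A2 (-0.71 ± 0.33), CPS4 (-0.69 ± 0.31) and KSL7 (-0.47 ± 0.18). The limma adjusted p ran from 0.266 for KSL4 to 0.749 for CYP701A8. Called in either direction were 0 of 9 probe sets, beside 0.108% of all probe sets (37 of 34316). Of these 37, 33 were lower in T, which is 0.0962% of all probe sets. At an unadjusted p under 0.05 in limma, 5 of the 8 genes were lower, beside 8.71% of all probe sets.

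On linear means, T read 0.504 of NT for CPS2, 0.477 for KSL4 and 0.869 for CYP701A8 in P-deficient soil. Both T arrays lay below both NT arrays for 7 of 9 probe sets, a pattern of 22.9% of all probe sets. The exceptions were CYP99A2, where NT replicate 1 (254.7) lay between the T arrays, and the other probe set of KSL7, whose T arrays lay above both NT arrays (0.23 ± 0.14, limma adjusted p = 0.503), as in 17.6% of all probe sets. NT replicate 2 was the highest array of that soil for 7 of the 8 genes. The median absolute gap between the NT replicates was 0.59 over the 8 genes and 0.25 over all genes. Without NT replicate 2 the median difference was -0.38 and all 8 genes were still lower in T, by 0.11 to 1.02, and without NT replicate 1 it was -1.01. The T arrays are those with GAPDH ratios of 198 and 3.05. With that ratio as a covariate the median was -0.75, while KSL10 moved to -0.17.

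In P-fertilised soil all 8 genes had higher values in T, taking the brighter probe set of KSL7, and none passed. The difference ran from 0.02 ± 0.22 for KSL4 to 0.39 ± 0.35 for CPS2, with a median of 0.28 against 0.04 over all genes, and every limma adjusted p was 1. Called in either direction were 0 of 9 probe sets, beside 0.00291% of all probe sets (1 of 34316), and 0 of the 8 genes had an unadjusted p under 0.05, beside 1.36% of all probe sets higher and 1.25% lower in T. T replicate 1 was the highest array of that soil for 7 of the 8 genes. Without it the median was -0.05, with 3 genes higher and 5 lower in T, and without T replicate 2 it was 0.44. T and NT arrays did not overlap for KSL10 (10.5 and 8.7 against 1.1 and 0.6) and for the brighter probe set of KSL7 (33.2 and 26.1 against 22.9 and 23), both higher in T, a pattern of 20.3% of all probe sets. The KSL10 readings there are near 0, so its difference rests on the pseudocount. It was 0.34 with 32 and 2.53 with 1, where it was the largest of the 8 genes, and its limma adjusted p was 1 with either.

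**Figure D3:**
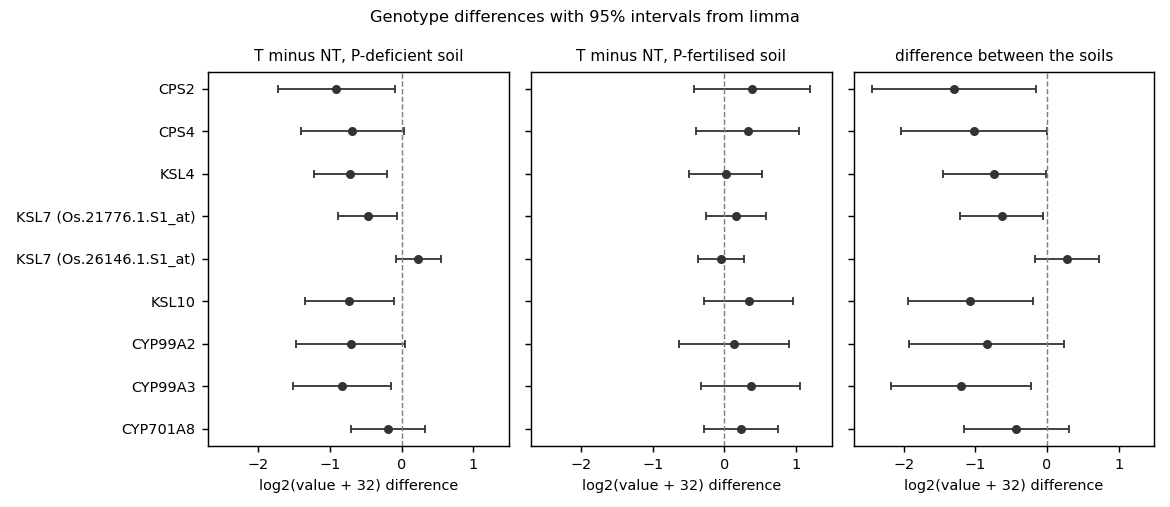
T minus NT on the log2(value + 32) scale for the 9 probe sets in P-deficient soil (left), in P-fertilised soil (middle), and the difference between these effects (right), with 95% intervals from limma. Points of the 8 best-read probe sets lie below 0 on the left and right and above 0 in the middle, and 0 of 9 passed after adjustment in each panel.

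The difference of the T minus NT effect between soils was tested directly. It was negative for all 8 genes, so the rise from P-fertilised to P-deficient soil was smaller in T, and none passed in limma. Values were -1.30 ± 0.50 for CPS2, -1.20 ± 0.42 for CYP99A3, -1.07 ± 0.38 for KSL10 and -1.02 ± 0.44 for CPS4. They were -0.84 ± 0.47 for CYP99A2, -0.74 ± 0.31 for KSL4, -0.64 ± 0.25 for KSL7 and -0.43 ± 0.32 for CYP701A8. The KSL10 value was -3.47 with a pseudocount of 1, then the largest of the 8, and -0.52 with the GAPDH covariate (limma adjusted p = 0.633 and 0.999). The median was -0.93 against 0.02 over all genes. The limma adjusted p ran from 0.829 to 0.89, and 0% of all probe sets were called in either direction (0 of 34316, with 2032 at an unadjusted p under 0.05). At an unadjusted p under 0.05, 6 of the 8 genes were lower, beside 4.24% of all probe sets. CYP99A2 and CYP701A8 had unadjusted limma p-values of 0.11 and 0.217, and the other probe set of KSL7 differed the other way (0.28 ± 0.20, adjusted p = 0.887). For CPS2 the 95% interval ran from -2.44 to -0.15, and for CYP701A8 from -1.16 to 0.31. Without NT replicate 2 of P-deficient soil the median was -0.57, with all 8 genes still negative. This comparison shares its arrays with those within each soil, so the values restate the same measurements. Averaged over both soils, T minus NT had a median of -0.21, ran from -0.35 for KSL4 to 0.02 for CYP701A8, and 0 of 9 probe sets passed in limma, beside 0.0321% of all probe sets. Leaving out an NT array of P-deficient soil moved that median to -0.39 (replicate 1) or -0.05 (replicate 2). Leaving out a T array of P-fertilised soil gave -0.36 (replicate 1) or -0.08 (replicate 2).

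**Figure D4:**
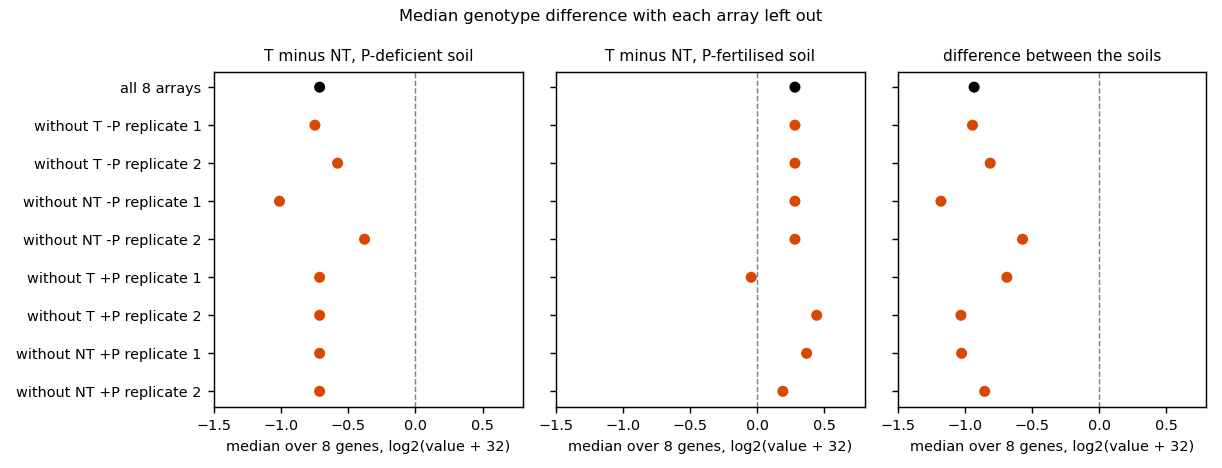
Median over the 8 genes of T minus NT in each soil and of the difference between soils, on the log2(value + 32) scale, with all 8 arrays (black) and with each array left out (orange). The P-deficient median ran from -1.01 to -0.38, the P-fertilised median from -0.05 to 0.44 and the difference between soils from -1.18 to -0.57.

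In P-fertilised soil replicate 1 was above replicate 2 for all 8 genes in T and for 7 of 8 in NT, beside 48.7% and 48.2% of all genes. In P-deficient soil it was above replicate 2 for 5 of 8 in T and 1 of 8 in NT, beside 58.4% and 51% of all genes. The intensities of the 8 genes summed to 3668.9 and 5749.3 in NT and 2749.2 and 2843.7 in T of P-deficient soil, and to 268.3 and 203.4 in NT and 472.2 and 231.1 in T of P-fertilised soil. The order of the group sums was NT then T in P-deficient soil, then T and NT in P-fertilised soil. T and NT of P-deficient soil did not overlap in this sum and T and NT of P-fertilised soil did. The sum is weighted to the probe sets with the highest readings, such as CPS2. Among all single probe sets, 22.9% had T below NT without overlap in P-deficient soil.

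Profiles over the 8 arrays, centred on each gene's mean, were compared by the root mean square (RMS) difference in log2 units. The most alike pair was CPS4 and KSL7 at 0.23, followed by CYP99A3 and CYP99A2 at 0.26. CPS2 and CYP701A8 were 0.35 apart. The least alike were CPS2 and KSL4 at 1.24, the genes with the largest and smallest difference between soils in NT on the log2(value + 32) scale. KSL7 lay nearest to the median profile of the 8 genes at 0.12 and CPS2 farthest at 0.64. Of 2293 other genes with a literature name, the nearest to that profile were GH3-8 (0.20), OsSWEET15 (0.23), CH16 (0.27), ABA8OX2 (0.27) and CLE202 (0.29). GH3-8 conjugates the hormone auxin to amino acids, OsSWEET15 is a sugar transporter gene, CH16 is a chitinase gene and ABA8OX2 breaks down abscisic acid. All 8 arrays share the split between soils, and the difference between soils in NT was 2.88 for GH3-8 and 2.89 for OsSWEET15. In P-fertilised soil GH3-8 read 318.3 to 374.3 and OsSWEET15 0.3 to 5.7. The difference and the RMS of OsSWEET15 therefore rest on the pseudocount. T minus NT in P-deficient soil was -0.51 for GH3-8 and -0.12 for OsSWEET15.

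The momilactone cluster was read as the 6 protein-coding genes from CPS4 to CYP99A2 in the gene order of a RefSeq table, used for order only. CPS4 and CYP99A3 are neighbours in it, as are KSL4 and CYP99A2. Of the 6 genes, 5 had a probe set, and all 5 rose in P-deficient soil in NT, beside 3060 of all 16166 genes. The fifth is MAS (LOC4335093), for momilactone A synthase, which rose by 1.23 ± 0.23 in NT (limma adjusted p = 0.00433). In T it differed by 0.52 (adjusted p = 0.12), from 58.6 and 44.3 to 93.6 and 80.6, and its T minus NT difference in P-deficient soil was -0.49. Of the 10 genes flanking the cluster on both sides together, 4 had a kept probe set. The gene next to CPS4, ARP9, differed by 0.31 in NT (limma adjusted p = 0.27) and rose by 0.58 in T (adjusted p = 0.0493). LOC9272088 rose by 0.41 in NT (adjusted p = 0.0463). It read low, at 6.9 to 10.2 in P-fertilised soil and 12.8 to 26.4 in P-deficient soil, and was kept by the filter only through the latter.

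The phytocassane cluster was read as the 10 genes from CYP76M5 to CYP76M6, of which 9 had a kept probe set. In NT 7 of the 9 rose in P-deficient soil and in T 6 did, beside 3060 and 3448 of all 16166 genes. CYP76M5 is the outermost of those that rose, and CPS2 is the last before KSL5, which did not pass. The P450 gene CYP71Z7 rose by 3.16 ± 0.515 in NT (limma adjusted p = 0.0021) and read 257.7 and 902.4 in NT and 548.3 and 278.3 in T of P-deficient soil, so the genotypes overlapped. LOC4329723, a gene without a name beside KSL7, rose by 3.97 in NT and 3.02 in T (adjusted p = 7.92e-05 and 0.000296) and was picked out after its values were seen. It read 519.6 and 1055.2 in NT and 543.8 and 402.4 in T of P-deficient soil, and 10 to 42.3 on the arrays of P-fertilised soil. CYP76M8, whose probe set may also read related genes by its design, rose by 1.13 in NT (limma adjusted p = 0.0258) and differed by 0.19 in T (adjusted p = 0.688). KSL5 differed by 0.03 in NT (adjusted p = 0.894) and CYP76M6 by -0.07 (adjusted p = 0.827). Of the 10 flanking genes on both sides together, 4 were kept, of which 0 rose and 1, LOC4329734, fell in each genotype.

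**Figure D5:**
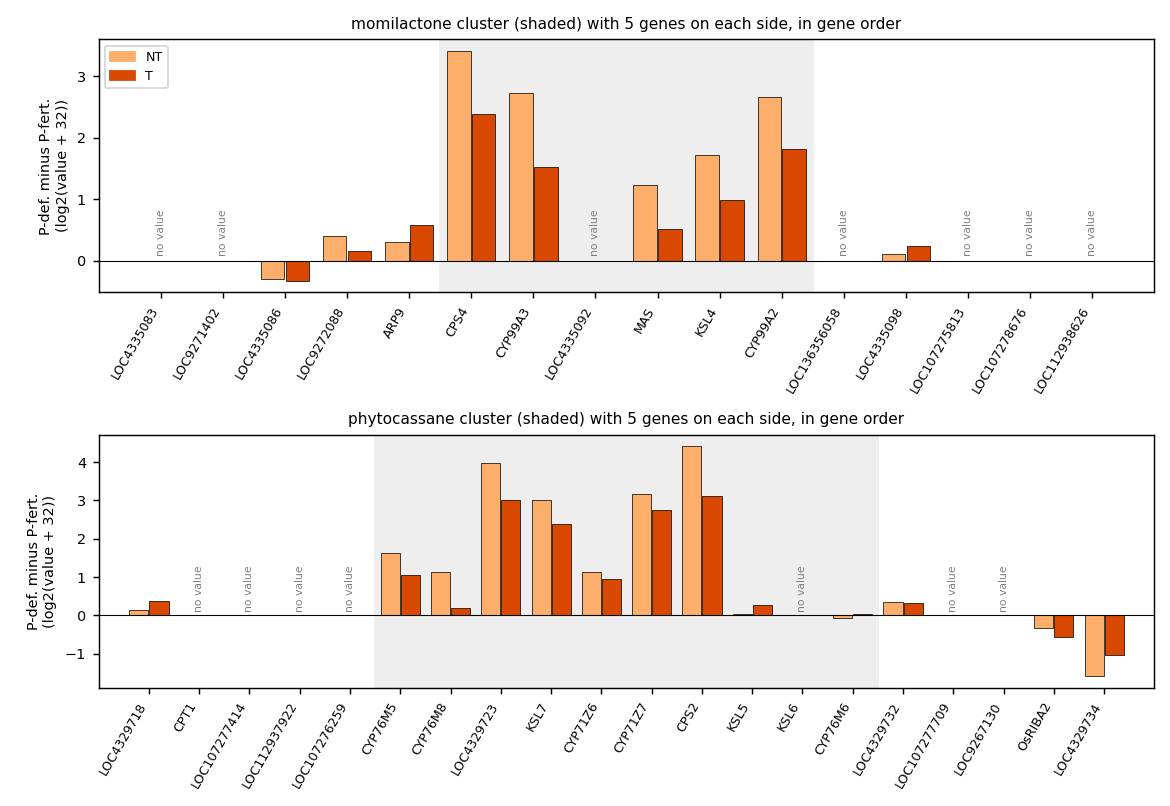
Difference between P-deficient and P-fertilised soil on the log2(value + 32) scale in NT (light) and T (dark), for genes in chromosome order through the momilactone and phytocassane clusters (shaded) and 5 genes on each side. From CPS4 to CYP99A2 and from CYP76M5 to CPS2 every measured gene passed in NT, while KSL5 and CYP76M6 passed in neither genotype. Among flanking genes LOC9272088 rose in NT (0.41), ARP9 rose in T (0.58) and LOC4329734 fell in both (-1.58 in NT and -1.03 in T). The other flanking genes measured did not pass. LOC9272088, KSL4, CYP76M5 and CYP71Z6 read low in P-fertilised soil and were kept by the filter only through their readings in P-deficient soil.

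Other genes of the pathway came from lists of names. Of 10 other diterpenoid phytoalexin genes with a probe set, 9 were kept. All of these but CYP701A9 and bZIP79 were already counted in the clusters above. In NT 6 of the 9 were higher and 1 lower in P-deficient soil, beside 3060 higher and 3718 lower of all 16166 genes. Their median was 1.12. CYP76M5 rose by 1.64 ± 0.21 in NT (limma adjusted p = 0.000553) and CYP71Z6 by 1.12 ± 0.16 (adjusted p = 0.000918). In P-fertilised soil CYP76M5 read 0.3 to 14.6, CYP71Z6 0.3 to 1 and CYP701A9, also called higher, 4.3 to 8.9. CYP76M5, CYP71Z6 and CYP701A9 were kept by the filter only through their readings in P-deficient soil. The lower gene was bZIP79, for a TGA-type bZIP factor whose overexpression is known to lower diterpenoid phytoalexin production in rice cells. It fell by 2.33 ± 0.18 in NT and by 2.24 in T, from 270.4 to 368.1 in P-fertilised soil to 36.8 to 46.8 in P-deficient soil (adjusted p = 4.14e-05 and 4.79e-05). In T, 4 of the list were higher and 1 lower, with a median of 0.52, beside 3448 higher and 3907 lower of all 16166 genes. In the test of T minus NT between soils 0 of 9 passed in limma, with MAS (-0.71 ± 0.33), CYP76M8 (-0.94 ± 0.445), CYP76M5 (-0.59 ± 0.29) and KSL5 (0.23 ± 0.21) at the smallest p.

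The plastid isoprenoid (MEP) pathway supplies the precursor. Of its 6 listed genes kept, 5 were higher in P-deficient soil in NT and 3 in T, with medians of 1.05 and 0.60. Of all 16166 genes, 3060 were higher in NT and 3448 in T. In NT ispH rose by 1.56 ± 0.18 (limma adjusted p = 0.000307), DXR by 1.33 ± 0.16 (0.000411), ispG by 1.09 ± 0.15 (0.000873) and MCS (LOC4330320) by 1.01 ± 0.19 (0.00476). The gene LOC4341801 carries MCS only as a shared synonym, and it did not pass (0.43, adjusted p = 0.162). In the test of T minus NT between soils, MCS (-0.54 ± 0.27), ispG (-0.36 ± 0.21), DXR (-0.38 ± 0.23) and ispH (-0.31 ± 0.25) had the smallest p and 0 of 6 passed in limma.

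Genes of the gibberellin branch use the same precursor. Of 9 genes kept, 3 were higher and 0 lower in P-deficient soil in NT, with a median of 0.12. Of all 16166 genes, 3060 were higher and 3718 lower in NT. The 3 higher genes of the list were KS1 (0.70 ± 0.16, limma adjusted p = 0.0121), EUI1 (0.77 ± 0.205, 0.0212) and GID1 (0.85 ± 0.23, 0.0232). KS1 is the kaurene synthase of gibberellin synthesis, EUI1 inactivates gibberellin and GID1 is the receptor gene. The probe sets of KS1 and of KO1, named below, may also read related genes by their design. CPS1, the gibberellin counterpart of CPS2, differed by -0.85 ± 0.38 (adjusted p = 0.124), where CPS2 rose by 4.42. In T 2 genes were higher and 0 lower, beside 3448 higher and 3907 lower of all 16166 genes. Between soils T minus NT had its smallest p for EUI1 (-0.54), KAO (-0.32), KO1 (0.35) and GA20ox3 (-0.24), and 0 of 9 passed.

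Of 14 defence genes kept, 6 were higher and 0 lower in P-deficient soil in NT, and 4 higher and 2 lower in T. Over all 16166 genes, 3060 were higher and 3718 lower in NT, and 3448 higher and 3907 lower in T. PBZ1, a pathogenesis-related gene, rose by 2.63 ± 0.46 in NT (limma adjusted p = 0.00291). It read 3366.6 and 4399.3 in NT and 3022.2 and 3342.2 in T of P-deficient soil, against 770.5 and 455.6 in NT and 1509.8 and 476.7 in T of P-fertilised soil. Its highest arrays were NT replicate 2 and T replicate 1, the same arrays as for CPS2. The gene LOC4325503, which has NPR1 and NH2 as synonyms, rose by 0.98 ± 0.13 (adjusted p = 0.000781), CERK1 (LOC4346173), for a chitin receptor kinase, by 0.70 ± 0.16 (0.01) and the transcription factor gene WRKY71 by 0.71 ± 0.17 (0.0143). These values are of the probe set with the highest mean per gene. The other probe set of WRKY71, picked out after its values were seen, read 651.9 and 467.8 in NT and 1.1 on both T arrays of P-deficient soil, against 0.9 and 158.9 in T and 270.8 and 269.9 in NT of P-fertilised soil. Its soil difference in NT was 0.95 ± 0.65 (limma adjusted p = 0.3), its T minus NT difference in P-deficient soil -4.14 ± 0.65 (0.0733) and the difference of that effect between soils -2.21 ± 0.92 (0.829). The probe sets of WRKY71 thus differed in what they showed, and none of these values of the other one passed. In the test of T minus NT between soils 0 of 14 passed in limma, with WRKY62 (-0.51 ± 0.19), CERK1 (-0.39 ± 0.22), CHS1 (-0.98 ± 0.67) and NPR1 (LOC4327315, -0.37 ± 0.26) at the smallest p.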

How the data were processed

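Root RNA of each sample was measured on 1 Affymetrix rice array, giving 8 arrays in 4 groups of 2. For 57381 probe sets the deposited unit is a linear intensity. The authors used GCOS, per the submitters' processing notes. Its version was not given in the sources used here, nor its settings. Each array had a mean of 100.01 to 100.02 after trimming 2% at each end, so the values were already scaled. Detection calls were not used, and precision is limited by the number of arrays.

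All fits used log2(value + 32). The 187 control probe sets and the 40% of the rest with the lowest mean (limit 5.39) were left out, which kept 34316. The 4 group means came from limma 3.58.1 (R 4.3.3; lmFit, eBayes with trend, 4 residual degrees of freedom, median prior degrees of freedom 4.28), with Benjamini-Hochberg adjustment, and the script was tested on simulated data. Medians use the probe set with the highest mean per gene. Names came from the platform annotation and a RefSeq table of ASM3414082v1. Of the lists, 12 of 26 diterpenoid, 10 of 25 gibberellin, 7 of 18 plastid isoprenoid and 14 of 26 defence names gave genes, counted as genes. All probe sets of the 8 genes are named, along with up to 4 genes per list with the smallest p in each of 2 comparisons and the 5 nearest profiles. The cluster neighbours were added after values were seen. Members and lists were chosen with earlier results of these data known. Alternatives were the pseudocount, filter, normalization, trend, replicate block, GAPDH covariate, 1 soil alone and each array left out.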

Additional observations from a re-analysis of the deposited data

Results flagged for a closer look

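For 2 probe sets both T arrays lay below both NT arrays in P-deficient soil and above both in P-fertilised soil, a pattern that 3.05% of all probe sets showed. They were the brighter probe set of KSL7, with a difference between the effects of -0.64 ± 0.25, and KSL10, with -1.07 ± 0.38. The KSL10 value was -3.47 with a pseudocount of 1 and -0.52 with the GAPDH covariate. The direct test of this difference did not pass for either (limma adjusted p = 0.829 for both). The other probe set of KSL7 differed by 0.28.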

How the results depend on the processing

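The number of probe sets of the 8 genes called between genotypes was 0 under all 18 alternatives in each soil and under all 17 for the difference between soils and the mean of both soils. Between soils it was 8 or 9 in NT and in T, with 8 tested when the lowest 60% of probe sets were left out. KSL4 in T was not called under 4 alternatives. The median difference between soils was 4.40 in NT and 3.10 in T with a pseudocount of 1, and 2.14 and 1.40 with 100, as the pseudocount compresses low signals by construction. In P-fertilised soil, T minus NT turned negative without T replicate 1 for CPS2, CPS4, KSL4 (-0.13), CYP99A3 and CYP701A8. With each array left out it ran from -0.045 to 0.82 for CPS2, -0.046 to 0.701 for CPS4, -0.22 to 0.25 for KSL4 (lowest without NT replicate 2), -0.075 to 0.808 for CYP99A3 and -0.046 to 0.514 for CYP701A8. The other probe set of KSL7 ran from -0.125 to 0.038, being positive without T replicate 2 or NT replicate 2 (0.013). None of these values was called. The replicate block left the counts of called probe sets at 0 between genotypes and 9 between soils in NT and in T. Deviations of same-numbered T and NT arrays correlated at -0.26 in the P-deficient soil and 0.21 in the fertilised one, and the labels do not say that a number marks a shared batch. Crossing the NT numbers of P-deficient soil, chosen after the data were seen, also gave 0 and 9. Over all probe sets the number called for T minus NT in P-deficient soil was 37, with 0 under the GAPDH covariate, 8 without NT replicate 2 and 506 without T replicate 2 of that soil. For the difference between soils it was 0 and reached 140 without that same T array, and for the mean of both soils 11, with 0 to 236. The cause was not tested.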
